A study of Mus musculus with 14 samples.

Results

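The genes described here are 10 costimulatory ligands and receptors of the tumour necrosis factor (TNF) superfamily, out of 18194 genes that the arrays of this mouse T cell series measure with a probe set of their own. The ligands are Cd70, Fasl, Cd40lg, Tnfsf8 and Tnfsf11, and the receptors are Cd27, Tnfrsf8, Tnfrsf4, Tnfrsf9 and Tnfrsf18. They were chosen by name, and all 14 probe sets annotated to them were read. The study inhibited Trpm4, an ion channel that calcium opens, in Th1 and Th2 cells and looked for changes in gene expression. T cells had been polarised to Th1 or Th2 for 2 weeks. Each cell type was measured in 7 conditions with 1 Affymetrix array each, 14 arrays in all. Th1 and Th2 cells with a retrovirus carrying dominant negative (DN) Trpm4 were measured at 12 h and at 4 h, next to cells with the vector only at the same times. Cells with Trpm4 siRNA, cells with Thy1 siRNA and untreated cells made up the other conditions. The labels speak of a stimulation for the retrovirus arrays, without naming the stimulus, and give no time for the siRNA and untreated arrays. They do not say whether RNA came from pooled animals, which promoter drove the DN construct or what share of the cells carried it. With no replicate arrays, matched pairs of arrays stand in for replicates in most tests, so p-values measure the spread between these pairs, which may be technical. The comparison of retrovirus arrays with the others has no pairs. It pools arrays of different treatments and times as replicates, and its p-values measure the spread among those.

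Ligands of the TNF superfamily are trimers on the cell surface that gather their receptors on a neighbouring cell. Most receptors described here bind TRAF adaptors and switch on NF-kappaB and kinase pathways that keep activated T cells alive and dividing, whereas Fas, the receptor of Fasl, holds a death domain. T cells show little of most of these proteins at rest and make them after signals through the T cell receptor, and the pairs Cd70 with Cd27 and Tnfsf8 with Tnfrsf8 can both be made by T cells themselves.

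Values are deposited signal after quantile normalisation, where the median probe set of an array has a signal of 25.9, and differences are on the scale of log2(signal + 16), where that median is 5.39 and the floor is 4. Differences of low signals are understated on this scale. A signal of one probe set was never set against that of another gene. Of the 14 probe sets, 13 passed the filter on low signal. The exception, 1421481_at of Tnfrsf9, read 1.16 to 26.1 and exceeded the array median in 1 of 14 arrays.

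The arrays were of 2 kinds. On 6 of them, namely all Th2 retrovirus arrays and both Th1 retrovirus arrays at 4 h, the 3′ control probe set of Gapdh exceeded the 5′ control by 5.43 to 5.91 on the log2 scale, against -0.25 to 0.04 in the other 8 arrays. This 3′ bias differs between the cell types at 12 h and between the times in Th1 cells, and no Th2 retrovirus array lacks it. Summed over probe sets, the deposited signal of an array came to between 7324678 and 10608719. Precision is limited by how few arrays there are. The targeted genes were read on single probe sets. Trpm4 had a signal of 59.0 with Trpm4 siRNA and 107 with Thy1 siRNA in Th1 cells, and of 82.1 with Trpm4 siRNA and 136 with Thy1 siRNA in Th2 cells. With DN Trpm4 it read 577 in Th1 at 12 h, against 82.6 with the vector, and 107 in Th1 at 4 h, against 65.6 with the vector. In Th2 cells it read 117 with DN Trpm4 and 138 with the vector at 12 h, and 112 with DN Trpm4 and 103 with the vector at 4 h. This probe set thus gave no clear rise with DN Trpm4 in Th2 cells. The summed signal of 5 Th1 markers was 5017 to 13748 in Th1 and 514 to 3510 in Th2 cells, and that of 4 Th2 markers was 397 to 1574 in Th1 and 2940 to 18518 in Th2 cells, so the labels and markers went together. Cd3e, Cd3g and Cd4 were above the array median on all arrays. Other cell types were looked for by marker lists. The sum of 4 B cell markers was 70.1 to 116 on treated arrays, 200 in untreated Th1 and 223 in untreated Th2 cells, and that of 6 macrophage and dendritic cell markers was 159 to 322 in Th1 and 214 to 504 in Th2 cells, with untreated cells highest in both. Of the B cell markers 0 to 4 of 4 exceeded the array median on an array, of the macrophage and dendritic cell markers 2 to 6 of 6, and their part in the results below was not tested.

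Among the ligands, Cd70, the partner of Cd27, was high in treated Th1 cells and low in all others. Cd70 in Th1 cells read 2158 with DN Trpm4 and 2503 with the vector at 12 h, 2051 with DN Trpm4 and 2231 with the vector at 4 h, 448 with Trpm4 siRNA, 332 with Thy1 siRNA and 34.6 in untreated cells. In Th2 cells Cd70 read 28.8 with DN Trpm4 and 22.2 with the vector at 12 h, 20.8 with DN Trpm4 and 55.6 with the vector at 4 h, 39.9 with Trpm4 siRNA, 23.5 with Thy1 siRNA and 13.7 untreated. All 6 treated Th1 arrays were far above every Th2 array, while the untreated Th1 array lay inside the Th2 range. The spread used for the order of conditions is the SD pooled over pairs of arrays that share cell type and time or are both siRNA, 0.35 on the log2 scale for Cd70. Mean log2 levels of 11.19 at 12 h and 11.07 at 4 h on the Th1 retrovirus arrays lay within that spread of each other, and the Th1 siRNA arrays stood between them and the rest. The Th2 arrays stayed at or around the array median, and among the Th2 sets only the untreated array lay further than the spread from its neighbour. In bulk RNA, fewer cells of a type and less RNA per cell cannot be told apart.

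Fasl, the ligand that triggers cell death through Fas, was read by a pair of probe sets, of which 1449235_at had the higher mean and leads here. Fasl in Th1 cells read 802 with DN Trpm4 and 939 with the vector at 12 h, 1986 with DN Trpm4 and 2261 with the vector at 4 h, 421 with Trpm4 siRNA, 381 with Thy1 siRNA and 1045 untreated. In Th2 cells Fasl read 327 with DN Trpm4 and 269 with the vector at 12 h, 392 with DN Trpm4 and 644 with the vector at 4 h, 741 with Trpm4 siRNA, 788 with Thy1 siRNA and 73.6 untreated. The order of the cell types turned with the condition: Th1 was higher on retrovirus and untreated arrays and lower on siRNA arrays. On this probe set the 4 h Th1 arrays were the highest and the untreated Th2 array the lowest. Among neighbours in the order of conditions the Th1 arrays at 12 h and the Th2 siRNA arrays lay within the spread of each other. On the other probe set, 1418803_a_at, untreated Th1 was highest (1131) and the Th1 arrays at 4 h read 205 and 219. The Th2 retrovirus arrays read 30.5 to 75.3 there, against 74.0 in untreated Th2. CD8 T and NK cells also make Fasl. Over 4 of their markers (Cd8a, Cd8b1, Eomes and Ncr1) the summed signal was 51.9 to 110 on Th1 and 55.5 to 83.8 on Th2 retrovirus arrays, 297 to 323 on Th1 and 778 to 815 on Th2 siRNA arrays, and 702 in Th1 and 317 in Th2 untreated cells. Most of the Th2 siRNA sum was Eomes, at 648 with Trpm4 siRNA and 621 with Thy1 siRNA. The part of such cells in the Fasl values was not tested.

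Cd40lg, through which helper T cells activate B cells and dendritic cells, was low. Cd40lg in Th1 cells read 162 with DN Trpm4 and 138 with the vector at 12 h, 26.7 with DN Trpm4 and 29.0 with the vector at 4 h, 29.2 with Trpm4 siRNA, 42.7 with Thy1 siRNA and 24.5 untreated. Cd40lg in Th2 cells read 5 to 20.1 over the 4 retrovirus arrays, 43.2 with Trpm4 siRNA, 39.6 with Thy1 siRNA and 12.1 untreated. Both Th1 arrays at 12 h were well above the other 12 arrays, which read 43.2 or less. These are the only retrovirus arrays without 3′ bias.

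Tnfsf8, the ligand of Tnfrsf8 (CD30), read higher in treated than in untreated cells of either type. Tnfsf8 in Th1 cells read 322 with DN Trpm4 and 294 with the vector at 12 h, 203 with DN Trpm4 and 205 with the vector at 4 h, 214 with Trpm4 siRNA, 148 with Thy1 siRNA and 21.6 untreated. The Th2 retrovirus arrays read 185 to 229, the Th2 siRNA arrays 396 with Trpm4 siRNA and 385 with Thy1 siRNA, and the untreated Th2 array 106. All treated arrays were above both untreated arrays, and the 4 h arrays of both cell types were within the spread of each other.

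Tnfsf11 (RANKL), which drives osteoclast formation and supports dendritic cells through Tnfrsf11a, was far lower in untreated cells on its leading probe set, 1419083_at. Tnfsf11 in Th1 cells read 3304 with DN Trpm4 and 3429 with the vector at 12 h, 6247 with DN Trpm4 and 5869.9 with the vector at 4 h, 1807 with Trpm4 siRNA, 1643 with Thy1 siRNA and 42.4 untreated. In Th2 cells Tnfsf11 read 1014 with DN Trpm4 and 1090.0 with the vector at 12 h, 1977 with DN Trpm4 and 2769 with the vector at 4 h, 1585 with Trpm4 siRNA, 1419 with Thy1 siRNA and 82.0 untreated. On this probe set every treated array was over 10 times the untreated array of its cell type. No neighbours in the order of conditions lay within the spread of their arrays. On the other probe set, 1451944_a_at, the Th2 retrovirus arrays read 37.2 to 144, on both sides of the 64.4 of untreated Th2 cells. The Th1 arrays at 4 h read 235 and 258 there, against 50.9 untreated.

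**Figure D1:**
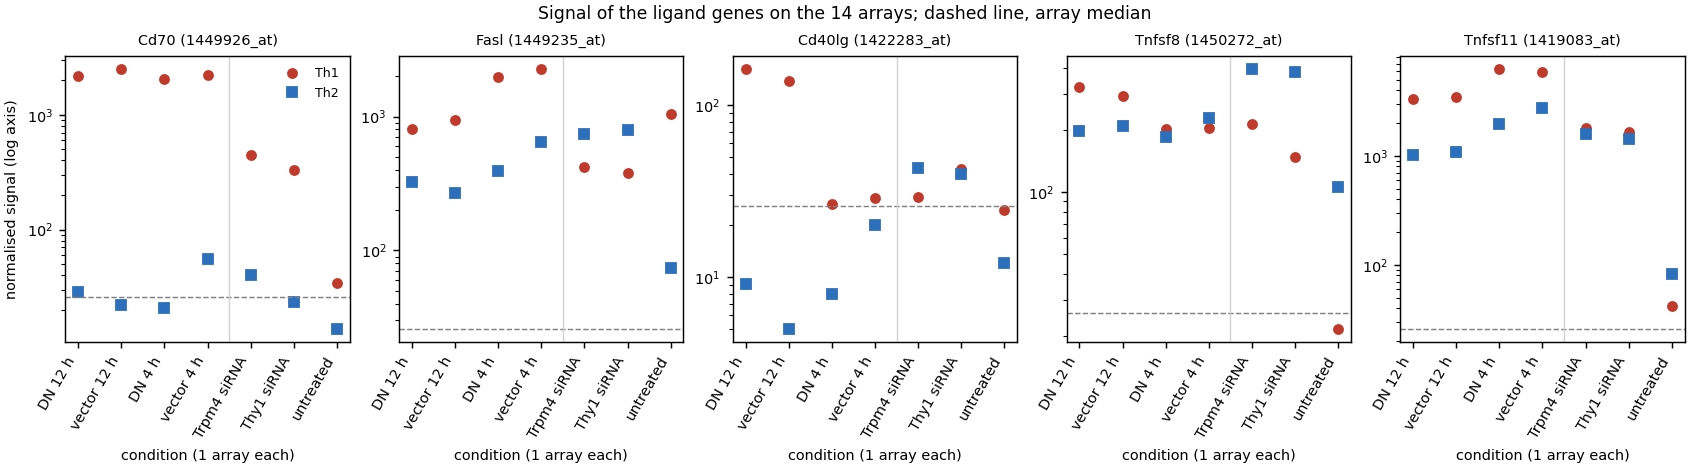
Normalised signal of the leading probe set of each ligand gene on a log axis, by condition, with 1 array per point, circles for Th1 and squares for Th2, and the array median of 25.9 as a dashed line. Cd70 separates the cell types on treated arrays, Cd40lg stands out on the Th1 arrays at 12 h (162 and 138), and Tnfsf11 is far lower on untreated arrays (42.4 in Th1 and 82.0 in Th2) than on all others.

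The promoter of Tnfsf11 is shown because both of its probe sets passed between the times in Th2 cells, as given below. It is the 250 bases before the gene's start in RefSeq on build GRCm38.p6, chr14:78308044-78308293, minus strand, written 5′ to 3′.
Tnfsf11: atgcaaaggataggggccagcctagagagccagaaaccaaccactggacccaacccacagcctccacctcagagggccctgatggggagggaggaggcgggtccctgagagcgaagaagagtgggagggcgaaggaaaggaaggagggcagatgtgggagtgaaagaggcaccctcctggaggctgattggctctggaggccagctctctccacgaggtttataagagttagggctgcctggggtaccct
Windows of 250 bases before to 50 bases after the start were searched on both strands for 5 motifs. The NFAT core, GGAAAA, is in 23.4% of all 32851 promoters of the table. The AP-1 letters TGANTCA are in 7.81%, the T-box letters AGGTGT in 13.7% and the GATA letters AGATAA in 11.2%, and the kappaB consensus is in 4.79%. None of them is in the Tnfsf11 window. The table held 9 promoters of 8 member genes, with the NFAT core in 4, AP-1 in 2, kappaB and the T-box letters in 1 each and the GATA letters in 0. The kappaB promoter, 1 of 2 of Tnfrsf9, held 2 overlapping matches. A match is a run of letters, not a bound site.

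Among the receptors, Cd27, which sustains T cell survival when bound by Cd70, was set apart by the Th2 arrays without a retrovirus. Cd27 in Th1 cells read 86.9 with DN Trpm4 and 69.4 with the vector at 12 h, 62.4 with DN Trpm4 and 48.1 with the vector at 4 h, 70.3 with Trpm4 siRNA, 48.6 with Thy1 siRNA and 100.5 untreated. In Th2 cells Cd27 read 66.8 with DN Trpm4 and 76.3 with the vector at 12 h, 111 with DN Trpm4 and 79.2 with the vector at 4 h, 472 with Trpm4 siRNA, 461 with Thy1 siRNA and 475 untreated. The 3 Th2 arrays without a retrovirus lay within the spread of each other and stood well above the other 11 arrays, which overlapped between the cell types. The summed CD8 T and NK cell markers given above were also higher on these 3 arrays (317 to 815) than on the Th2 retrovirus arrays (55.5 to 83.8). In Th1 cells that sum was 702 untreated, where Cd27 read 100.5, and 297 to 323 with siRNA, where Cd27 read 48.6 to 70.3. The part of these markers in the Cd27 values was not tested.

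Tnfrsf8 (CD30), a receptor found on activated T cells, was low on all retrovirus arrays. Tnfrsf8 in Th1 cells read 35.8 with DN Trpm4 and 32.2 with the vector at 12 h, 17.7 with DN Trpm4 and 13.1 with the vector at 4 h, 296 with Trpm4 siRNA, 205 with Thy1 siRNA and 56.4 untreated. In Th2 cells Tnfrsf8 read 27.1 with DN Trpm4 and 34.1 with the vector at 12 h, 30.5 with DN Trpm4 and 24.0 with the vector at 4 h, 157 with Trpm4 siRNA, 88.2 with Thy1 siRNA and 451 untreated. The 8 retrovirus arrays and the 6 other arrays did not overlap in either cell type. The retrovirus values lay close to the array median, where differences are compressed, and those at 12 h of both cell types and at 4 h of Th2 were neighbours within the spread.

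Tnfrsf4 (OX40), which prolongs T cell responses when bound by Tnfsf4, was higher in Th2 cells in 6 of 7 conditions. Tnfrsf4 in Th1 cells read 1439.8 with DN Trpm4 and 1561 with the vector at 12 h, 945 with DN Trpm4 and 999.9 with the vector at 4 h, 644 with Trpm4 siRNA, 534 with Thy1 siRNA and 262 untreated. In Th2 cells Tnfrsf4 read 2141 with DN Trpm4 and 1561 with the vector at 12 h, 2396 with DN Trpm4 and 2903 with the vector at 4 h, 3154 with Trpm4 siRNA, 3336 with Thy1 siRNA and 4508 untreated. The order of conditions was opposite in the cell types. In Th1 cells the mean level ran from retrovirus at 12 h through retrovirus at 4 h and siRNA down to untreated, and in Th2 cells the untreated array was highest and the 12 h arrays lowest. All neighbours in this order differed beyond the spread.

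Tnfrsf9, a receptor of activated T cells bound by Tnfsf9, was high on every array on its leading probe set, 1460469_at. Tnfrsf9 in Th1 cells read 4219 with DN Trpm4 and 4244 with the vector at 12 h, 3121 with DN Trpm4 and 3352 with the vector at 4 h, 4508 with Trpm4 siRNA, 4062 with Thy1 siRNA and 686 untreated. In Th2 cells Tnfrsf9 read 2446 with DN Trpm4 and 1899 with the vector at 12 h, 773 with DN Trpm4 and 1340.4 with the vector at 4 h, 3358 with Trpm4 siRNA, 3523 with Thy1 siRNA and 1774 untreated. The untreated Th1 array was the lowest of all on this probe set, and each treated Th1 array was above the Th2 array of the same condition. On 1428034_a_at the lowest was Th2 with DN Trpm4 at 4 h, at 113, against 245 in untreated Th1. In the order of conditions the Th1 siRNA and Th1 12 h arrays, at the top, lay within the spread of each other, as did the Th2 siRNA and Th1 4 h arrays next in order.

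Tnfrsf18 (GITR), a costimulatory receptor of activated and regulatory T cells alike, was well above the array median on all 14 arrays. Tnfrsf18 in Th1 cells read 1099 with DN Trpm4 and 1124 with the vector at 12 h, 2091 with DN Trpm4 and 2840.5 with the vector at 4 h, 2177 with Trpm4 siRNA, 1822 with Thy1 siRNA and 1622 untreated. In Th2 cells Tnfrsf18 read 2084 with DN Trpm4 and 1813 with the vector at 12 h, 3009 with DN Trpm4 and 2963 with the vector at 4 h, 2922 with Trpm4 siRNA, 3121 with Thy1 siRNA and 3933 untreated. Each Th1 array was below the Th2 array of its condition, and in both cell types the 12 h arrays were lower than the 4 h arrays. The Th2 siRNA and Th2 4 h arrays lay within the spread of each other, and so did the Th1 siRNA and Th2 12 h arrays. Foxp3, which defines regulatory T cells, did not pass the filter on low signal. Of the 4 listed markers of these cells (Foxp3, Ikzf2, Il2ra and Ctla4), 2 to 3 exceeded the array median on an array. Their summed signal was 1469.5 to 4709, and the part of such cells in the Tnfrsf18 values was not tested.

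**Figure D2:**
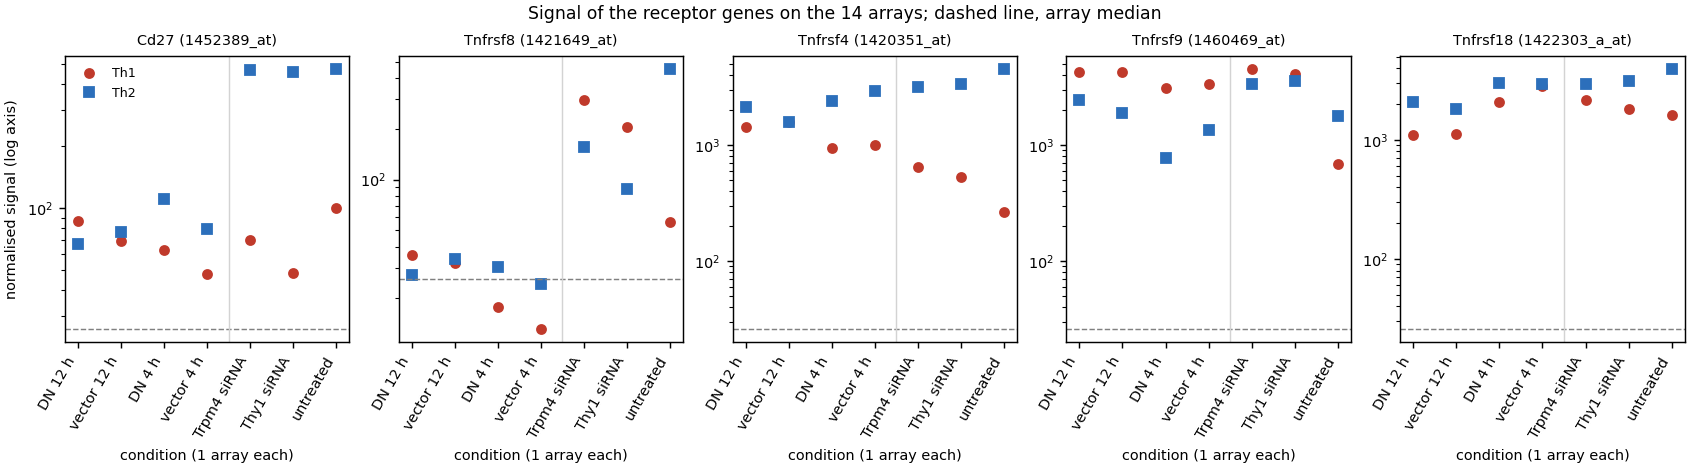
Normalised signal of the leading probe set of each receptor gene on a log axis, by condition, with 1 array per point, circles for Th1 and squares for Th2, and the array median of 25.9 as a dashed line. Cd27 is higher on the 3 Th2 arrays without a retrovirus (461 to 475), Tnfrsf8 is low on the retrovirus arrays of both cell types, and Tnfrsf4 runs in opposite directions across the conditions in Th1 and Th2.

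Tnfrsf4 and Tnfrsf18 are next to each other among the protein-coding genes of chromosome 4 in RefSeq, and both passed the test between the cell types below, so their promoters are shown together. Both are the 250 bases before the start on GRCm38.p6, plus strand, 5′ to 3′, at chr4:156013445-156013694 for Tnfrsf4 and chr4:156026072-156026321 for Tnfrsf18. Capitals mark the NFAT core (as TTTTCC) and the T-box letters (as ACACCT), both on the strand opposite to the one printed.
Tnfrsf4: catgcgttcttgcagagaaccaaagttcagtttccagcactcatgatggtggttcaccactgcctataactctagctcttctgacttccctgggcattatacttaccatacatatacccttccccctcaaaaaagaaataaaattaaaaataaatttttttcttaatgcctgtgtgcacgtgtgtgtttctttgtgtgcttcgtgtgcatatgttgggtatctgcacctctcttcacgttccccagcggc
Tnfrsf18: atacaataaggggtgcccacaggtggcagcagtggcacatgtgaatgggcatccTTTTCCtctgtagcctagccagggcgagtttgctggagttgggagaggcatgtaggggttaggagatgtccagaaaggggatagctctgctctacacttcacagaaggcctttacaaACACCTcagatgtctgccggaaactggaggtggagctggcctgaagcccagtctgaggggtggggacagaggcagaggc
The Tnfrsf18 window held both matches, and the Tnfrsf4 window held none of the 5 motifs. The other members also have relatives beside them in the same gene table: Cd70 lies between Tnfsf9 and Tnfsf14 on chromosome 17, Fasl beside Tnfsf18, Tnfsf8 beside Tnfsf15 and Tnfrsf8 beside Tnfrsf1b.

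Probe sets of the same gene disagreed on the arrays with 3′ bias. The leading probe set of Fasl exceeded 1418803_a_at by 2.50 to 3.36 on the log2 scale on the 6 biased arrays, against -0.11 to 0.64 on the other 8. For Tnfsf11 the leading probe set exceeded 1451944_a_at by 4.05 to 4.64 on the biased arrays, against -0.20 to 1.26 on the others. For Tnfrsf9 it exceeded 1428034_a_at by 2.61 to 3.14 on the biased arrays, against 0.26 to 1.42 on the others. The ranges of the kinds of array did not overlap for any of these 3 genes. A comparison that sets arrays of different kinds against each other therefore gave different sizes, and in some cases different directions, on the probe sets of a gene. Directions differed for Fasl and Tnfsf11 between the times in Th1 cells. They also differed between retrovirus arrays and the others, at 0.68 and -1.29 for Fasl and 2.20 and -0.52 for Tnfsf11 (leading probe set first). How far the members with a single probe set share this shift was not tested.

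**Figure D3:**
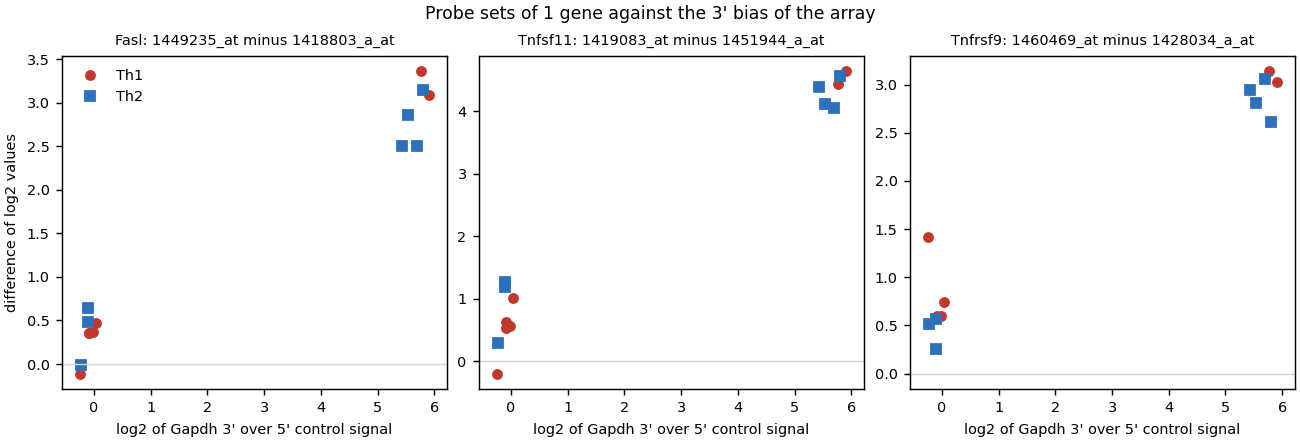
Difference of log2 values between the leading and the other probe set of Fasl, Tnfsf11 and Tnfrsf9 against the log2 ratio of the Gapdh 3′ and 5′ control probe sets, with 1 point per array, circles for Th1 and squares for Th2. The 6 arrays with Gapdh ratios of 5.43 to 5.91 sit at 2.50 or above in each panel, and the other 8 arrays at 1.42 or below.

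Between the cell types, Cd70 was higher in Th1 cells, and Tnfrsf4 and Tnfrsf18 were lower in Th1 than in Th2 cells. Over 7 pairs of arrays of the same condition, Cd70 averaged 9.64 in Th1 and 5.44 in Th2 on the log2 scale, a difference of 4.20 ± 0.58 (SE, 7 pairs, limma, adjusted p = 0.00244) that was positive in 7 of 7 pairs, from 0.77 untreated to 6.04 with the vector at 12 h. Tnfrsf4 averaged 9.66 in Th1 and 11.42 in Th2, a difference of -1.76 ± 0.41 (SE, 7 pairs, limma, adjusted p = 0.0269) that ran from -4.03 untreated to 0.00 with the vector at 12 h. Tnfrsf18 averaged 10.77 in Th1 and 11.44 in Th2, a difference of -0.66 ± 0.15 (SE, 7 pairs, limma, adjusted p = 0.0243), negative in 7 of 7 pairs. Of the 13 member probe sets tested, 3 were called at an adjusted p under 0.05, 1 higher and 2 lower in Th1, where 9.79% of all 29467 probe sets were called, 3.65% higher and 6.14% lower. The median difference of the 13 was 0.82, against 0.01 for all probe sets.

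These 3 differences held in sign, but not all in their call, within a kind of array. In the siRNA and untreated pairs, without 3′ bias, the difference was 2.32 for Cd70 (adjusted p = 0.14), -2.97 for Tnfrsf4 (adjusted p = 0.0594) and -0.82 for Tnfrsf18 (adjusted p = 0.165). In the retrovirus pairs at 4 h, both biased, it was 5.39 for Cd70 (adjusted p = 8.46e-09), -1.42 for Tnfrsf4 (adjusted p = 2.47e-05) and -0.29 for Tnfrsf18 (adjusted p = 0.197). Without the pairs at 12 h, where the kinds differ, Cd70 stood at 3.55 (adjusted p = 0.0285), Tnfrsf4 at -2.35 (adjusted p = 0.0163) and Tnfrsf18 at -0.61 (adjusted p = 0.113). Left out one at a time, each of 4 pairs (Trpm4 siRNA, Thy1 siRNA, and DN Trpm4 and vector at 4 h) ended the Tnfrsf4 call (adjusted p = 0.0516 to 0.0667), and each of 4 (DN Trpm4 and vector at 12 h, DN Trpm4 at 4 h and Thy1 siRNA) ended the Tnfrsf18 call (adjusted p = 0.0517 to 0.0713), with differences that stayed between -1.83 and -1.62 for Tnfrsf4 and between -0.69 and -0.62 for Tnfrsf18. The Tnfrsf18 call also ended with median centring (-0.56, adjusted p = 0.0544).

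The other members did not pass between the cell types. Cd27 had a difference of -1.22 ± 0.38 (7 pairs, adjusted p = 0.0744), with pairs of -2.88 to 0.31. It was called without the pairs at 12 h, at -1.74 (adjusted p = 0.0422), and in the siRNA and untreated pairs, at -2.49 (adjusted p = 0.0264). Fasl had 1.26 on its leading probe set, with a 95% interval, not adjusted for the number of tests, of 0.15 to 2.37 (adjusted p = 0.136). Tnfsf11 had 0.82 (interval 0.15 to 1.48, adjusted p = 0.113), Cd40lg 1.01 (0.12 to 1.90, adjusted p = 0.138) and Tnfrsf9 0.65 (-0.09 to 1.38, adjusted p = 0.238). The intervals of Tnfsf8, at -0.39 (-1.02 to 0.24), and Tnfrsf8, at -0.21 (-1.06 to 0.64), also cover differences in both directions. The other probe sets had 1.86 for Fasl (adjusted p = 0.0799), 1.99 for Tnfsf11 (adjusted p = 0.101) and 1.02 for Tnfrsf9 (adjusted p = 0.3). These estimates pool conditions that disagree: the pairs of Fasl ran from -1.02 to 3.57 and those of Tnfrsf8 from -2.69 to 1.08. In the retrovirus pairs at 4 h alone, 11 of the 13 probe sets were called, among them Fasl at 2.04, Tnfrsf9 at 1.65 and Tnfsf11 at 1.37. That fit holds 2 pairs of arrays, DN Trpm4 and vector, and called 8111 probe sets in all.

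**Figure D4:**
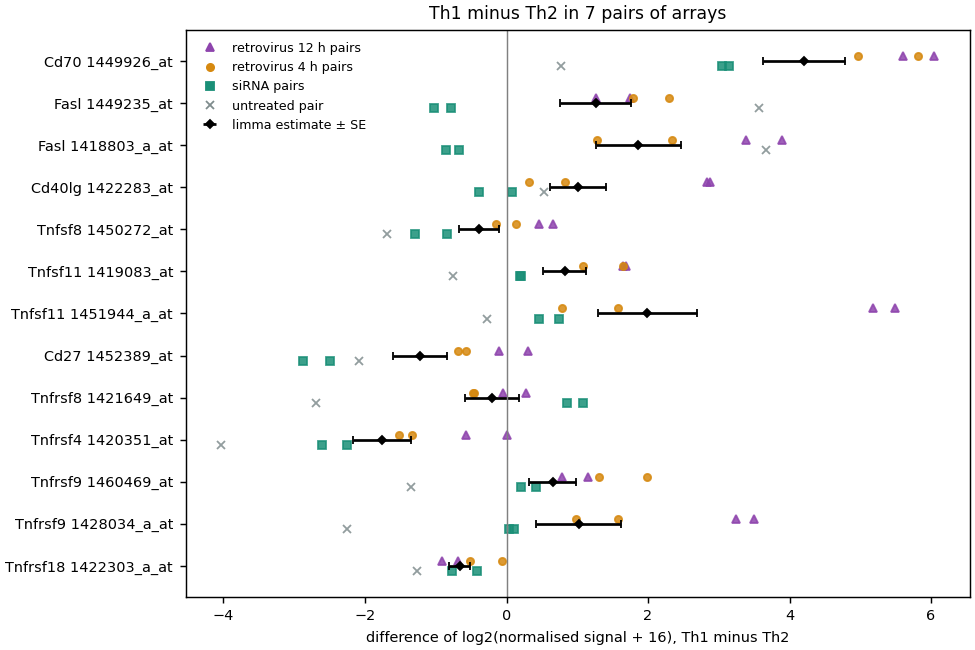
Th1 minus Th2 differences of log2(normalised signal + 16) for the 13 member probe sets tested, with 1 coloured point per pair of arrays and the limma estimate ± SE in black. All 7 pairs of Cd70 lie above 0, no pair of Tnfrsf4 or Tnfrsf18 does, and the pairs of every other probe set shown fall on both sides of 0.

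Inhibition of Trpm4, the question of the series, gave no difference that passed in any member. Over 6 pairs, with Trpm4 siRNA against Thy1 siRNA and DN Trpm4 against the vector, the estimates of the 13 member probe sets lay between -0.13 for Fasl and 0.26 for Tnfrsf8, with a median of -0.02 against 0 for all probe sets. Tnfrsf8 averaged 6.24 with Trpm4 inhibited and 5.99 in controls, a difference of 0.26 ± 0.11 (SE, 6 pairs, limma, adjusted p = 0.825), higher in 5 of 6 pairs. Cd27 averaged 6.95 with Trpm4 inhibited and 6.74 in controls, a difference of 0.21 ± 0.09 (SE, 6 pairs, limma, adjusted p = 0.818), also higher in 5 of 6. Of the 13 member probe sets 0 were called, as were 0% of all 29467 probe sets, with 2 members and 1733 probe sets in all at an unadjusted p under 0.05.

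The intervals bound what these pairs leave room for. The 95% interval ran from -0.38 to 0.33 for Cd70, from -0.37 to 0.11 for Fasl, from -0.33 to 0.17 for Cd40lg and from -0.16 to 0.25 for Tnfsf8. For the receptors it ran from -0.19 to 0.24 for Tnfrsf4, from -0.35 to 0.20 for Tnfrsf9 and from -0.22 to 0.19 for Tnfrsf18. Tnfsf11 had -0.24 to 0.16. The intervals of Tnfrsf8 (0.02 to 0.50) and Cd27 (0.02 to 0.40), not adjusted for the number of tests, lay above 0. These intervals assume an effect common to siRNA and DN Trpm4, to both times and to both cell types.

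Fitted by cell type, inhibition of Trpm4 again gave 0 calls among the members and 0% of all probe sets in Th1 and in Th2. That fit held the pairs of both cell types, so its SE and p-values draw on the spread of both. At an unadjusted p under 0.05 there was 1 member in Th1 cells, Cd27 at 0.33 ± 0.12 (SE, 3 pairs, limma, adjusted p = 1), among 928 probe sets in all, and there were 0 members in Th2 cells among 1824. The difference between the cell types passed for 0 members and 0% of all probe sets, with 0 members and 1032 probe sets at an unadjusted p under 0.05. The widest single pairs came from Th2 cells at 4 h, where DN Trpm4 minus vector was -0.96 for Cd70, -0.97 for 1418803_a_at of Fasl, -0.93 for 1451944_a_at of Tnfsf11 and -0.78 for the leading probe set of Tnfrsf9. In that pair the Actb 3′ ratio was 4.85 with DN Trpm4 and 3.96 with the vector, and its part in these values was not tested. DN Trpm4 minus vector over its 4 pairs called 0 members and 0% of all probe sets, with 0 members and 997 probe sets at an unadjusted p under 0.05.

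Trpm4 siRNA against Thy1 siRNA had its largest member values in Tnfrsf8 and Cd70. Tnfrsf8 read 296 with Trpm4 siRNA and 205 with Thy1 siRNA in Th1 cells, and 157 with Trpm4 siRNA and 88.2 with Thy1 siRNA in Th2 cells, a mean difference of 0.61 ± 0.11 (SE, 2 pairs, limma, adjusted p = 0.409). Cd70 differed by 0.46 ± 0.10 (SE, 2 pairs, limma, adjusted p = 0.409), with 0.41 in Th1 and 0.50 in Th2. Of the 13 probe sets, 12 had a positive difference and 0 were called, as were 0% of all, with 4 members and 3318 probe sets at an unadjusted p under 0.05. With a trend in the variance model, 98 of all probe sets and 3 of the members were called, Tnfrsf8 (adjusted p = 0.00993), 1451944_a_at of Tnfsf11 at 0.38 (adjusted p = 0.0234) and 1428034_a_at of Tnfrsf9 at 0.28 (adjusted p = 0.0282). This fit rests on 1 residual degree of freedom, and the control arm was itself a knockdown, of Thy1. On simulated data it called none of the planted changes, so its lack of calls cannot show that the members were unchanged.

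**Figure D5:**
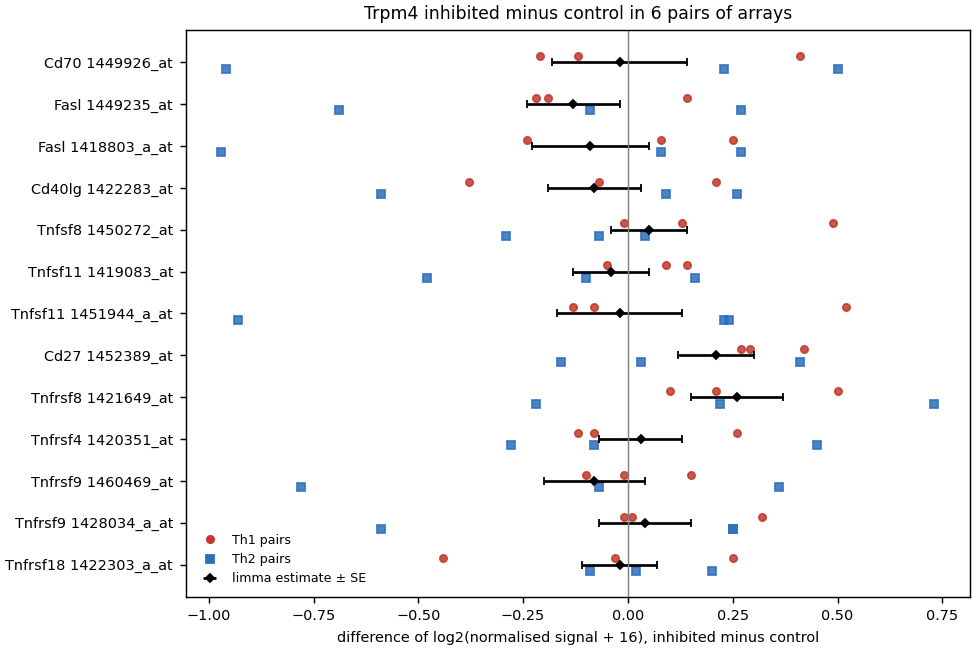
Differences of log2(normalised signal + 16) with Trpm4 inhibited minus its control for the 13 member probe sets tested, with circles for the 3 Th1 pairs, squares for the 3 Th2 pairs and the limma estimate ± SE in black. The estimates lie between -0.13 and 0.26, and the pairs of most probe sets fall on both sides of 0.

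Between the times of the retrovirus arrays, the leading probe set of Tnfsf11 was lower at 12 h than at 4 h, and its other probe set went the opposite way in Th1 cells. The leading probe set averaged 10.89 at 12 h and 11.88 at 4 h, a difference of -0.99 ± 0.15 (SE, 4 pairs, limma, adjusted p = 0.0437), lower in 4 of 4 pairs. It was the single call among the 13 member probe sets, where 2.01% of all probe sets were called, 0.713% higher and 1.3% lower. It was not called with the deposited signal (adjusted p = 0.0589) or with median centring (adjusted p = 0.0662). Its other probe set, 1451944_a_at, stood at 1.07 (adjusted p = 0.441). Leaving out any of the 4 pairs ended the call too, with differences from -1.07 to -0.88. The leading probe set of Fasl was lower at 12 h in 4 of 4 pairs with a difference of -1 (adjusted p = 0.0693), and so was Tnfrsf18 with one of -0.87 (adjusted p = 0.0624). Tnfrsf9 was higher at 12 h in 4 of 4 pairs with 0.73 (adjusted p = 0.14).

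The times were also fitted by cell type, with the pairs of both cell types in the same fit. Its SE and p-values thus draw on the spread of both. In Th2 cells both times had the 3′ bias. Tnfsf11 fell at 12 h on both of its probe sets there, by 1.14 ± 0.15 on the leading one (SE, 2 pairs, limma, adjusted p = 0.00412) and by 1.01 on 1451944_a_at (adjusted p = 0.0345). Tnfrsf9 rose on both of its probe sets, by 1.07 on the leading one (adjusted p = 0.027) and by 0.78 on 1428034_a_at (adjusted p = 0.0419), and Tnfrsf18 fell by 0.62 (adjusted p = 0.0403). These 5 of 13 calls stand beside 10.1% of all probe sets called in Th2, 4.51% higher and 5.57% lower. With a pseudocount of 1 in place of 16, 0 of them were called (adjusted p = 0.0674 to 0.154). Left out one at a time, the Th2 pair with DN Trpm4 ended both Tnfrsf9 calls, at 0.50 on the leading probe set (adjusted p = 0.0973) and 0.36 on 1428034_a_at (adjusted p = 0.19). The call of 1428034_a_at was also lost without either Th1 pair (adjusted p = 0.0548). The Th2 pair with the vector ended the call of 1451944_a_at, at -0.43 (adjusted p = 0.111), and each of the 4 pairs ended that of Tnfrsf18 (adjusted p = 0.0669 to 0.109). All 6 T cell activation genes were also lower at 12 h in Th2 cells, 4 of them called, with a median of -0.83, and their part was not tested.

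In Th1 cells 10 of the 13 member probe sets were called between 12 h and 4 h, 7 higher and 3 lower, against 56.1% of all probe sets, 27% higher and 29.1% lower, and here the times differ in the kind of array. Cd40lg was higher at 12 h by 1.92, Tnfsf8 by 0.55, Tnfrsf8 by 0.68 and Tnfrsf4 by 0.62, and Tnfrsf18 fell by 1.12 (largest adjusted p of these 5, 0.0189). With either Th1 pair left out, the calls of Tnfsf8 (adjusted p = 0.0839 and 0.183), Tnfrsf8 (0.0966 and 0.0569) and Tnfrsf4 (0.139 and 0.121) were lost. With the deposited signal Tnfsf8 stood at 0.27 (adjusted p = 0.164) and Tnfrsf4 at 0.51 (adjusted p = 0.0692). Tnfsf11 stood at -0.84 on its leading probe set and at 3.15 on 1451944_a_at, and Fasl at -1.27 and 1.59, so the probe sets of a gene passed in opposite directions. Time and array kind cannot be told apart in Th1 cells. In the deposited signal, without scaling, the median of all probe sets between 12 h and 4 h in Th1 was -0.12, against -0.01 here. The time difference itself differed between the cell types for 6 of the 13 member probe sets, beside 38.2% of all probe sets.

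Cells of the retrovirus arrays differed from siRNA and untreated cells in 4 members. Tnfrsf8 was lower on the 8 retrovirus arrays, with mean log2 values of 5.39 on these and 7.54 on the 6 others, a difference of -2.15 ± 0.34 (SE, 14 arrays, limma, adjusted p = 2e-04). Cd27 was lower, with a difference of -1.20 ± 0.33 (SE, 14 arrays, limma, adjusted p = 0.00918). Cd70 was higher, with 1.84 ± 0.58 (SE, 14 arrays, limma, adjusted p = 0.0186), and so was Tnfsf11 on its leading probe set, with 2.20 ± 0.79 (SE, 14 arrays, limma, adjusted p = 0.0345), while 1451944_a_at of Tnfsf11 had -0.52 (adjusted p = 0.639). These 4 of 13 calls stand beside 45.2% of all probe sets called, 23.5% higher and 21.7% lower. Of the retrovirus arrays 6 have the 3′ bias and of the others 0 have it, and stimulation, virus and array kind cannot be told apart here.

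Some of these differences rested on part of the arrays. Without the untreated arrays the Tnfsf11 difference was 0.72 (adjusted p = 0.0891), and the call was also lost without the vector arrays at 4 h (adjusted p = 0.0995), without the DN Trpm4 arrays at 4 h (adjusted p = 0.0912), with the deposited signal (adjusted p = 0.0982) and with median centring (adjusted p = 0.0955). The Cd70 call was lost without the vector arrays at 4 h (1.73, adjusted p = 0.0565) and without the Th1 arrays at 12 h (1.52, adjusted p = 0.0618). Within the cell types, mean log2 values of Cd70 were 11.13 on retrovirus arrays and 7.65 on the others in Th1, and 5.53 on retrovirus arrays and 5.33 on the others in Th2. That difference between the cell types was 3.28 ± 0.81 (SE, 14 arrays, limma, adjusted p = 0.101), and 2.51 without the untreated arrays (adjusted p = 0.00306). Among the 8 arrays without 3′ bias, Cd70 was 3.54 higher on the Th1 retrovirus arrays at 12 h (adjusted p = 0.0434), Tnfrsf8 stood at -1.77 (adjusted p = 0.201) and Cd27 at 0.11 (adjusted p = 0.824). The leading probe set of Tnfsf11 stood at 2.59 there (adjusted p = 0.409). Cd40lg, at 1.80 (adjusted p = 0.019), and Tnfrsf4, at 1.70 (adjusted p = 0.0294), were called on these arrays but not over all 14. Summed over 6 T cell activation genes, signal was 8238 to 13875 in Th1 and 5009 to 9108 in Th2 retrovirus cells, 3572 to 3822 in Th1 and 7061 to 7093 in Th2 siRNA cells, and 1773 in Th1 and 1591 in Th2 untreated cells. The part of activation in the member values was not tested.

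Cd27 and Tnfrsf4 differed between the cell types in this contrast. The retrovirus difference in Th1 minus that in Th2 was 2.22 ± 0.32 for Cd27 (SE, 14 arrays, limma, adjusted p = 0.01) and 2.11 ± 0.44 for Tnfrsf4 (SE, 14 arrays, limma, adjusted p = 0.0497), 2 of 13 member probe sets beside 0.628% of all. For Cd27 this is the gap between 461 to 475 on the Th2 arrays without a retrovirus and 66.8 to 111 on the Th2 retrovirus arrays, with no such gap in Th1. For Tnfrsf4 the retrovirus arrays were above the others in Th1 and below them in Th2. All Th2 retrovirus arrays have the 3′ bias and the Th1 arrays at 12 h do not. Over all 14 arrays, array kind and cell type therefore cannot be told apart in this contrast. Without the Th1 arrays at 12 h, every retrovirus array is biased and no other array is, and the Cd27 call held. The Tnfrsf4 call was lost with the deposited signal (adjusted p = 0.0563), without the Th1 arrays at 12 h (adjusted p = 0.0847) and with each of 6 conditions left out in turn (adjusted p = 0.0982 to 0.256). That of Cd27 was lost without Thy1 siRNA, Trpm4 siRNA, the vector at 12 h or DN Trpm4 at 12 h (adjusted p = 0.0732 to 0.132).

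Cells with siRNA were set against untreated cells as values alone, since both siRNA arrays of a cell type share 1 untreated array. The leading probe set of Tnfsf11 was higher with siRNA by 4.96 (Trpm4 siRNA) and 4.83 (Thy1 siRNA) in Th1 and by 4.03 and 3.87 in Th2. Cd70 was higher by 3.20 and 2.78 in Th1 and by 0.91 and 0.41 in Th2, Tnfsf8 by 2.61 and 2.13 in Th1 and by 1.76 and 1.72 in Th2, and the leading probe set of Tnfrsf9 by 2.69 and 2.54 in Th1 and by 0.91 and 0.98 in Th2. These 4 genes were higher in both cell types. Fasl was -1.28 and -1.42 in Th1 and 3.08 and 3.17 in Th2, and Tnfrsf8 was 2.11 and 1.61 in Th1 and -1.44 and -2.16 in Th2, so the direction of both was opposite in the cell types.

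The partners outside the list were read beside the members. Tnfsf4, the ligand of Tnfrsf4, was higher in Th1 cells, with mean log2 values of 6.90 in Th1 and 5.33 in Th2, a difference of 1.57 ± 0.35 (SE, 7 pairs, limma, adjusted p = 0.0235), while Tnfrsf4 itself was lower in Th1. Tnfsf9, the ligand of Tnfrsf9, had 1.46 ± 0.41 (SE, 7 pairs, limma, adjusted p = 0.0517). Fas, the receptor of Fasl, had -0.61 (adjusted p = 0.153), Cd40 -0.24 (adjusted p = 0.37) and Tnfrsf11a, the receptor of Tnfsf11, 0.14 (adjusted p = 0.572). Tnfsf18, the ligand of Tnfrsf18, has no probe set of its own here.

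Of 35 other ligands and receptors of the superfamily, 31 were measured and 27 tested, and between the cell types 6 were higher and 1 was lower in Th1, with a median of 0.17 against 0.01 for all probe sets. Lta, which encodes lymphotoxin alpha, was higher in Th1 by 5.27 ± 0.42 (SE, 7 pairs, limma, adjusted p = 8.87e-05), Tnfrsf11b, a decoy receptor of Tnfsf11, by 2.63 ± 0.38, and Tnf by 2.02 ± 0.26. Ltb was higher by 1.36 and Tnfrsf13b by 1.22, and Tnfsf13b, a survival factor of B cells, was lower, at -2.24 ± 0.22 (SE, 7 pairs, limma, adjusted p = 0.000343). Of 20 intracellular mediators 18 were tested and 2 passed, beside 9.79% of all probe sets: Nfkb2 and Relb, which encode NF-kappaB subunits, were higher in Th1 by 2.03 ± 0.26 and by 0.74 ± 0.20 in that order.

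Inhibition of Trpm4 called 0 of these 27 genes and 0 of the 18 mediators over the 6 pairs. Between retrovirus arrays and the others, 4 of the 27 were higher and 7 lower, beside the background of 45.2% called. Tnf was higher by 2.93 ± 0.40 and Tnfsf14, which lies beside Cd70, by 2.47 ± 0.61, with Lta at 1.36 and Tnfsf9 at 1.22. Tnfrsf11a was lower, at -1.86 ± 0.17, as was Fas, at -1.26 ± 0.38, the receptors of Tnfsf11 and Fasl. Between 12 h and 4 h, Ltb (-2.05 ± 0.27, SE, 4 pairs, limma, adjusted p = 0.0395) and the adaptor gene Traf1 (-1.59 ± 0.21, adjusted p = 0.0399) were lower at 12 h, each the single call of its list, beside 2.01% of all probe sets called. Both calls were lost with any 1 of the 4 pairs left out, when 0 of all probe sets were called.

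The genes with the most similar pattern over the 14 arrays were found by Pearson's r with the leading probe set, as a description, since arrays of a set resemble each other. For Cd70 they were Exph5 (0.985) and Mpzl2 (0.984), for Tnfsf11 Upb1 (0.971) and Kdm5a (0.97), for Cd40lg Trp53rka (0.961) and Lrch3 (0.952), for Tnfsf8 Atf6 (0.957) and Zfp948 (0.956), and for Fasl Furin (0.911) and Il18rap (0.903). For the receptors they were Tg (0.953) and Ccr8 (0.949) for Cd27, Cip2a (0.946) and Kif11 (0.944) for Tnfrsf8, Kcnk5 (0.94) and Slc41a3 (0.928) for Tnfrsf4, Uba6 (0.963) and Cflar (0.939) for Tnfrsf9, and Socs3 and B3galt4 (0.932 each) for Tnfrsf18. All 20 of these r values are over 14 arrays.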

How the data were processed

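Total RNA of Th1 and Th2 cells was extracted with Trizol and labelled with biotin, per the labels' protocols. The authors deposited a linear intensity for each probe set. The sources used here do not give how it was summarised from probes and scaled between arrays. All 45101 probe sets of the 14 arrays were brought to one distribution by quantile normalisation, then to log2(signal + 16). The 64 control probe sets were used for the 3′ to 5′ ratios alone. Those above the array median on 2 or more arrays were tested, 29467 in number. Each comparison was fitted over these with limma 3.58.1 (lmFit, eBayes; R 4.3.3), taking the matched pair as a fixed block or the cell type as a term in the retrovirus comparison. Tests were two-sided, with a Benjamini-Hochberg adjusted p under 0.05 as the threshold. On simulated data of these designs the fits gave unbiased differences, but those of Trpm4 siRNA and of the difference of time effects called none of the planted changes. The simulation changed few probe sets and held no differences between pairs. On the real arrays the fit of the difference of time effects called 38.2% of all probe sets, so the simulation does not describe that fit here. The number of arrays limits precision.

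The members, gene lists and tests were chosen with earlier results of these data known. All member probe sets are named, with the one of highest mean over the arrays leading. Of the other listed genes the rule takes the members' partners and up to 6 that passed with the largest change, and of similar genes the 2 with the highest r. Probe sets were named through the platform annotation, and only those with 1 gene (34958). Alternatives were the deposited signal, median centring, no filter or one at the 75th percentile, pseudocounts of 1 and 64, a variance trend, robust eBayes, fits with no pair block or with 1 probe set per gene, each pair left out, and subsets of arrays by 3′ bias.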

Additional observations from a re-analysis of the deposited data

Results flagged for a closer look

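Differences between 12 h and 4 h that differed between Th1 and Th2 cells by a test of the difference itself were found for 6 member probe sets, beside 38.2% of all probe sets. The 12 h minus 4 h difference in Th1 minus that in Th2 was 4.16 for 1451944_a_at of Tnfsf11, 2.28 for Cd40lg, 2.09 for 1428034_a_at of Tnfrsf9, 1.83 for 1418803_a_at of Fasl, 1.14 for Tnfrsf4 and 0.73 for Cd27 (limma, largest adjusted p of these 0.0376). The Cd27 call was lost without either Th1 pair (adjusted p = 0.162 and 0.158), without the Th2 pair with DN Trpm4 (0.45, adjusted p = 0.0954), with no filter (adjusted p = 0.0575) and with a pseudocount of 1 (adjusted p = 0.0829), and the Fasl call with a pseudocount of 1 (adjusted p = 0.0615). For Tnfrsf4 (1.14) and Cd27 (0.73) every Th1 pair also moved up and every Th2 pair down. The Th1 arrays differ in 3′ bias between the times and the Th2 arrays do not, so the kind of array and the cell type cannot be told apart here. The leading probe sets of Tnfsf11 (0.30, adjusted p = 0.307), Fasl (-0.54, adjusted p = 0.194) and Tnfrsf9 (-0.68, adjusted p = 0.144) did not pass.

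The signed difference between retrovirus arrays and the others in Th1 minus that in Th2 was 2.22 for Cd27 and 2.11 for Tnfrsf4, each tested as an interaction. For Cd27 the fall was on the Th2 arrays, and for Tnfrsf4 the retrovirus arrays were higher than the others in Th1 and lower in Th2. All Th2 retrovirus arrays have the 3′ bias and the Th1 arrays at 12 h do not. Without those Th1 arrays the Cd27 call held and that of Tnfrsf4 was lost (1.80, limma, adjusted p = 0.0847). The part of the bias was not otherwise tested.

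With siRNA against untreated cells, 4 genes moved in opposite directions in the cell types on both siRNA arrays, a difference that was not tested. The mean difference in Th1 minus that in Th2 was -4.47 for Fasl, 3.66 for Tnfrsf8, 1.59 for Tnfrsf4 and 0.68 for Tnfrsf18. Each cell type has a single untreated array, which enters both of its values.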

How the results depend on the processing

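The results are limited by 1 array per condition, by low signals compressed by the pseudocount, and by a 3′ bias tied to cell type at 12 h and to time in Th1. Of 2509 values of single member probe sets under an alternative, 2250 kept their direction and their side of the threshold, 105 changed sign without passing the test in either setting, 85 lost and 67 gained the call in the same direction, and 2 changed sign with a call in one setting. Those 2 were 1451944_a_at of Tnfsf11 between 12 h and 4 h, at -1.01 in the 2 Th2 pairs only (adjusted p = 0.0295), and Cd27 on retrovirus arrays, at 0.11 without the 6 biased arrays (adjusted p = 0.824). The cause was not tested.

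The number of member probe sets called changed as follows. Between Th1 and Th2 (3 called) it was 1 in the siRNA and untreated pairs, 11 in the retrovirus pairs at 4 h and 1 to 5 with a pair left out, 1 without the DN Trpm4 pair at 4 h and 5 without the untreated pair. It was 0 for Trpm4 inhibition over both cell types, within each, for their difference and for DN Trpm4, under all settings run. For Trpm4 siRNA it was 3 with a variance trend, and no pair could be left out, since 1 pair gives no fit. Between 12 h and 4 h (1 called) it was 0 with the deposited signal, median centring, a pseudocount of 1 or no pair block, 0 with any pair left out, and 3 with 1 probe set per gene or in the 2 Th2 pairs. In Th2 alone (5 called) it was 3 with the deposited signal or 1 probe set per gene, 0 with a pseudocount of 1, 2 with no filter and 3 to 7 with a pair left out. On retrovirus arrays (4 called) it was 2 to 5 with a condition left out, 2 without the vector at 4 h. For the difference of that contrast between cell types (2 called) it was 1 with the deposited signal, a pseudocount of 1, no filter, robust eBayes or without the Th1 arrays at 12 h, 6 without the untreated arrays and 0 to 6 with a condition left out. The fit of that difference without the biased arrays could not be run, as no Th2 retrovirus array remains. The number of all probe sets called also moved. Over the alternatives that leave out no single pair or condition, it ranged from 319 to 8111 between Th1 and Th2 (2884 called), from 0 to 98 for Trpm4 siRNA (0 called), from 0 to 1846 between 12 h and 4 h (592), from 7500 to 16768 in Th1 alone (16537), from 0 to 4040 in Th2 alone (2970) and from 5080 to 11505 for their difference (11253). For retrovirus arrays it ranged from 2964 to 15643 (13326 called), and for the difference of that contrast from 83 to 1595 (185), and it was 3 to 1595 with a condition left out.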
